A study of Mus musculus with 10 samples.

Results

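The genes described here are the neural intermediate filament genes Nefm, Nefl, Nefh, Ina, Prph and Nes. They were found on the arrays as the non-control probes that carry these names, which gave 8 probes among 55681 and 6 genes among 24185 named ones. The set was chosen by a measured value, since Nefm had stood out for a much higher signal in cultured spermatogonia given FGF5 than in those without it. Values of the set in that comparison are therefore a description and are given with no test.

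The study asked how FGF5, a growth factor made by endothelial cells around the seminiferous tubules, acts on the spermatogonia that express GFRα1. Germline stem (GS) cells, which are spermatogonia propagated in culture, were wild type, were kept for 3 days without FGF2 and GDNF, and then received either 100 ng/ml FGF5 or none for 24 hours, with 2 samples each. Their strain is C57BL/6 by the labels and an intercross of C57BL/6 and ICR mice by the methods. GFRα1+ cells were the GFP+ fraction sorted from testes of Gfrα1-GFP mice aged 2.5 months on a C57BL/6 background, 3 samples from wild-type (WT) mice and 3 from Fgf5-/- mice, whose null allele is Fgf5 go-moja/Utr. All 6 sorted samples thus carry the Gfrα1-GFP knock-in, and the GFP marks every cell that expresses the reporter. Each sample was hybridized to 1 array of the 8x60K format with 1 dye, Cy3. The 4 cultured samples were on 1 slide and the 6 sorted samples on another, so slide and material cannot be told apart where the materials are compared. Experiments within a group are described as independent, but the sources used here do not say how many mice went into a sorted sample.

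Intermediate filaments are rope-like polymers that give a cell its mechanical strength, and their subunits differ between cell types. In neurons, the neurofilament light chain (Nefl) assembles with the medium (Nefm) and heavy (Nefh) chains, whose long tails project from the filament, and with α-internexin (Ina) or peripherin (Prph), the latter mostly in peripheral neurons. Nestin (Nes) is the large subunit of neural progenitors, and it is also made by other immature or dividing cells.

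The sequences of 3 probes are shown because the values of these subunits were read with them. The first is the Nefm probe on which the choice of the set rests, the second is 1 of 2 probes for the heavy chain, and the third is the Prph probe, whose last bases, in capitals, spell a stop triplet in its first reading frame. Whether they lie in coding sequence was not checked against an annotation. They are printed 5′ to 3′ as the array design gives them.
Nefm: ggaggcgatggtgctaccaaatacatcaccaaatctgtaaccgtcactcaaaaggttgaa
Nefh: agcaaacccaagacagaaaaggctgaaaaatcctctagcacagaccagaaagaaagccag
Prph: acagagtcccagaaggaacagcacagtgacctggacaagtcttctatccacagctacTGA
Over the 28 pairs that the 8 probes form, the longest run of identical bases on either strand was between 5 and 9, so no pair shares a long stretch of sequence. Positions are those of the array design in mm9. The Nefm probe A_51_P145220 (NM_008691) lies at chr14:68738193-68738252 on the minus strand, and the Nefl probe A_51_P339934 (NM_010910) at chr14:68705638-68705698 on the plus strand. The Nefh probes (NM_010904) are A_55_P2053181 at chr11:4838758-4838817 and A_55_P2099790, the one printed, at chr11:4839396-4839455, both on the minus strand. The Ina probes are A_51_P458852 at chr19:47099350-47099409 and A_55_P2017373 (NM_146100) at chr19:47098781-47098840, both on the plus strand. The Prph probe A_55_P1968895 (NM_013639) lies at chr15:98889042-98889101 and the Nes probe A_55_P1953728 (NM_016701) at chr3:87784303-87784362, both on the plus strand. Nefm was printed as 10 spots per array and each of the others as 1 spot.

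Signals are given as log2 values above or below the 75th percentile of their own array, which is 0 on this scale. That percentile was 575.8 to 649.8 scanner units on the cultured arrays and 795.6 to 1093 on the sorted ones, and the share of probes well above background lay between 55.3% and 65.9%. All 10 genes on a list of germ cells and undifferentiated spermatogonia were well above background on every array, in both materials. The probe for Fgf5 itself stood well above background on 0 of the 3 arrays of WT cells and on 1 of the 3 of Fgf5-/- cells, so it does not check the genotypes. The arrays measure RNA in bulk, where fewer cells of a type and less RNA per cell cannot be told apart.

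Nefm was the member with the widest range of levels. In GS cells without FGF5 its log2 signal was -2.72 in replicate 1 and -2.76 in replicate 2, which are 99.3 and 85.6 scanner units. With FGF5 it was -0.53 in replicate 1 and 1.64 in replicate 2, or 411 and 1994 scanner units. Both arrays with FGF5 were above both arrays without it, and they were far from each other, while the arrays without FGF5 were almost alike. The mean of the 2 arrays was 0.55 (SD 1.53) given FGF5 and -2.74 (SD 0.03) in its absence, a log2 difference of 3.29 with a standard error of 0.73, or 9.79-fold. A difference at least as high was found for 0.0405% of the 34610 probes tested. Without replicate 1 of the cells with FGF5 the log2 difference was 4.37, and without replicate 2 it was 2.21. The spots of the probe differed little within an array, with an SD of 0.04 to 0.16 on the log2 scale, so the gap between the replicates lies between arrays and not between spots. Dusp6, which encodes a phosphatase that acts on ERK and is induced by FGF signaling, had a log2 signal of 2.25 in replicate 1 with FGF5, 4.06 in replicate 2, and -1.33 and -1.53 in the replicates without FGF5. It too was higher in replicate 2 with FGF5 than in replicate 1.

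Nefl, the light chain, had a log2 signal of -3.39 and -2.74 in the replicates without FGF5 and of -2.47 and -0.60 in those with FGF5. The groups did not overlap, and again replicate 2 with FGF5 was the highest. The means of the 2 arrays were -1.53 (SD 1.33) and -3.06 (SD 0.46), so the log2 difference was 1.53 with a standard error of 0.67, or 2.89-fold. It was 2.47 without replicate 1 of the cells with FGF5 and 0.59 without replicate 2, 1.85 without replicate 2 of the cells lacking it and 1.21 without replicate 1.

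The remaining subunits had log2 differences between -0.25 and 0.21 with FGF5, and their groups overlapped. The heavy chain had differences of -0.13 (SE 0.21) and -0.25 (SE 0.22) on its probes A_55_P2053181 and A_55_P2099790. The α-internexin probes A_51_P458852 and A_55_P2017373 had differences of -0.16 (SE 0.19) and -0.06 (SE 0.19). Prph was dim, at -4.64 and -3.99 with FGF5 and at -4.91 and -4.15 without, and the lowest of these values was not well above background. Nes was high on all 4 arrays, at 3.74 and 3.52 with FGF5 and 3.68 and 3.60 without, and differed by -0.01 (SE 0.17). In all, 2 of the 8 probes were at least 2-fold higher with FGF5 on arrays that did not overlap, against 0.751% of the probes tested, and 0 of the 8 were lower by this measure, against 0.387%. Since the set was chosen by this comparison, nothing is read from these shares.

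**Figure D1:**
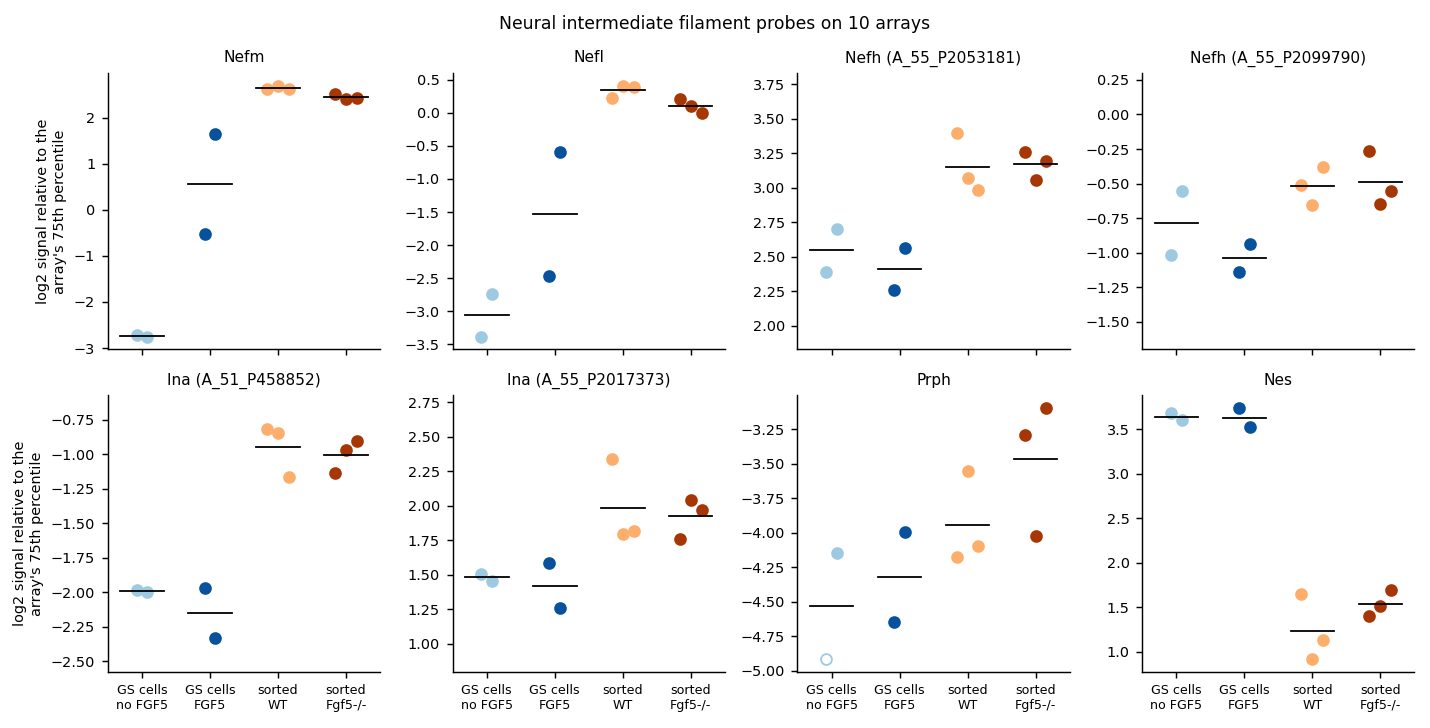
Log2 signal above or below the array's 75th percentile (vertical axis, with a scale of its own in each panel) for the 8 probes in GS cells without and with FGF5 (2 arrays each) and in sorted WT and Fgf5-/- GFRα1+ cells (3 arrays each). Each point is 1 array, bars are group means, and the open point is the Prph value not well above background; Nefm runs from -2.76 in GS cells without FGF5 to 2.69 in sorted WT cells, while Nes is highest in the cultured cells.

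In sorted GFRα1+ cells, the comparison of Fgf5-/- with WT mice asks whether the lack of FGF5 alters these genes in the testis. No member passed the test. Over the 30274 probes in the limma fit (two-sided, Benjamini-Hochberg adjustment), the lowest adjusted p was 0.729, so that 0% were called. Before adjustment, 2051 probes, or 6.77%, were under 0.05, and 0 of the 8 member probes were among them.

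Nefm had a log2 signal of 2.62, 2.69 and 2.62 on the WT arrays and of 2.51, 2.41 and 2.43 on the Fgf5-/- arrays. The 3 WT arrays all lay above the 3 Fgf5-/- arrays. The mean was 2.64 ± 0.04 in WT and 2.45 ± 0.06 in Fgf5-/- cells (SD, n = 3 each), a difference of -0.19 with a 95% interval of -0.42 to 0.04 and an adjusted p of 0.738 in limma. Nefl was at 0.23, 0.41 and 0.40 on the WT arrays and at 0.20, 0.10 and 0.0007 on the Fgf5-/- arrays. These did not overlap either, though the highest Fgf5-/- array was close to the lowest WT array. The difference was -0.24 with a 95% interval of -0.51 to 0.025 (limma, adjusted p = 0.731). This kind of separation, with all Fgf5-/- values under all WT values, was found for 2 of the 8 member probes and for 9.19% of all tested probes. Dusp6 and Etv5, the latter an ETS factor needed for self-renewal of spermatogonial stem cells, were separated in the same way, with log2 differences of -0.28 and -0.31, each with an adjusted p of 0.729 in limma.

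The other subunits had overlapping groups in the sorted cells. The differences were 0.02 and 0.03 for the Nefh probes A_55_P2053181 and A_55_P2099790 and -0.06 for each Ina probe, and each of these 4 changed sign when some single array was left out. The sign also turned with normexp background correction for A_55_P2099790 and with another choice of percentile for both Ina probes. Prph was at -4.18, -3.55 and -4.10 on the WT arrays and at -3.29, -4.02 and -3.10 on the Fgf5-/- arrays. Its difference was 0.47 with a 95% interval of -0.21 to 1.16 (limma, adjusted p = 0.756), the widest interval of the set. Nes was at 1.65, 0.92 and 1.13 on the WT arrays and at 1.40, 1.51 and 1.69 on the Fgf5-/- arrays, a difference of 0.30 with a 95% interval of -0.19 to 0.79 (limma, adjusted p = 0.764). The intervals of Nefm, Nefl and all Nefh and Ina probes lay between -0.51 and 0.37, which leaves out a change of 2-fold in either direction, whereas that of Prph does not leave out a 2-fold increase.

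Cultured and sorted cells were compared as the mean of both cultured groups against the mean of both sorted groups, which does not use the difference that the choice of the set rests on. Neurofilament genes had a lower signal in culture, and nestin a higher one. Nefm fell by 3.64 on the log2 scale (SE 0.35), which is 12.4-fold lower in culture (limma, adjusted p = 4.848e-05), and only 0.603% of the tested probes had a difference as low. Nefl fell by 2.52 (SE 0.33), or 5.74-fold (limma, adjusted p = 0.0002174). For both genes, each of the 4 cultured arrays was below each of the 6 sorted ones. The cultured mean joins groups at different levels. Against WT cells alone, Nefm was 41.6-fold lower in GS cells without FGF5 and 4.255-fold lower in those with it. For Nefl these values were 10.6-fold and 3.68-fold. They rest on the arrays that chose the set, so the gap between the cultured groups is a description. Nes rose by 2.25 (SE 0.15), or 4.77-fold (limma, adjusted p = 9.821e-06), and each cultured array was above each sorted one, with 3.52 as the lowest cultured value and 1.69 as the highest sorted value.

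The other chains fell by less. On Nefh probe A_55_P2053181 the cultured arrays spanned 2.26 to 2.70 and the sorted arrays 2.98 to 3.39, a difference of -0.68 (SE 0.13) with an adjusted p of 0.0017 in limma. On Ina probe A_51_P458852 the cultured arrays spanned -2.33 to -1.97 and the sorted arrays -1.17 to -0.82, a difference of -1.10 (SE 0.12) with an adjusted p of 9.334e-05 in limma. The second probe of each gene moved the same way by less, by -0.41 (SE 0.14, adjusted p = 0.0251 in limma) for Nefh A_55_P2099790, where the materials overlapped, and by -0.50 (SE 0.14, adjusted p = 0.0132) for Ina A_55_P2017373, where they did not. Prph fell by 0.72 (SE 0.26, limma, adjusted p = 0.0352) with overlap.

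The calls for these last 3 probes were not stable. Leaving out 1 array took the adjusted p in limma of Prph to between 0.0676 and 0.14 for replicate 1 of the cells with FGF5, replicate 1 of those without, WT replicate 2 and Fgf5-/- replicates 1 and 3, with differences between -0.67 and -0.53. For Nefh A_55_P2099790 it became 0.0854 without replicate 1 of the cells with FGF5 (difference -0.36), 0.102 without replicate 1 of those without FGF5 (-0.29) and 0.0578 without WT replicate 3 (-0.38). For Ina A_55_P2017373 it became 0.0541 without replicate 2 of the cells with FGF5 (-0.42). After normexp background correction the difference was -0.0084 for Prph (limma, adjusted p = 0.956) and -0.27 for Nefh A_55_P2099790 (limma, adjusted p = 0.0541).

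In all, 7 of the 8 probes, standing for 5 of the 6 genes, were lower in culture past an adjusted p of 0.05, as were 25.7% of the 35808 probes tested, and 1 of the 8 was higher, as were 41.9%. The median difference of all probes was 0.26 and that of the 8 member probes was -0.70. The materials were on different slides, and the labels give no batch within which they could be compared.

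**Figure D2:**
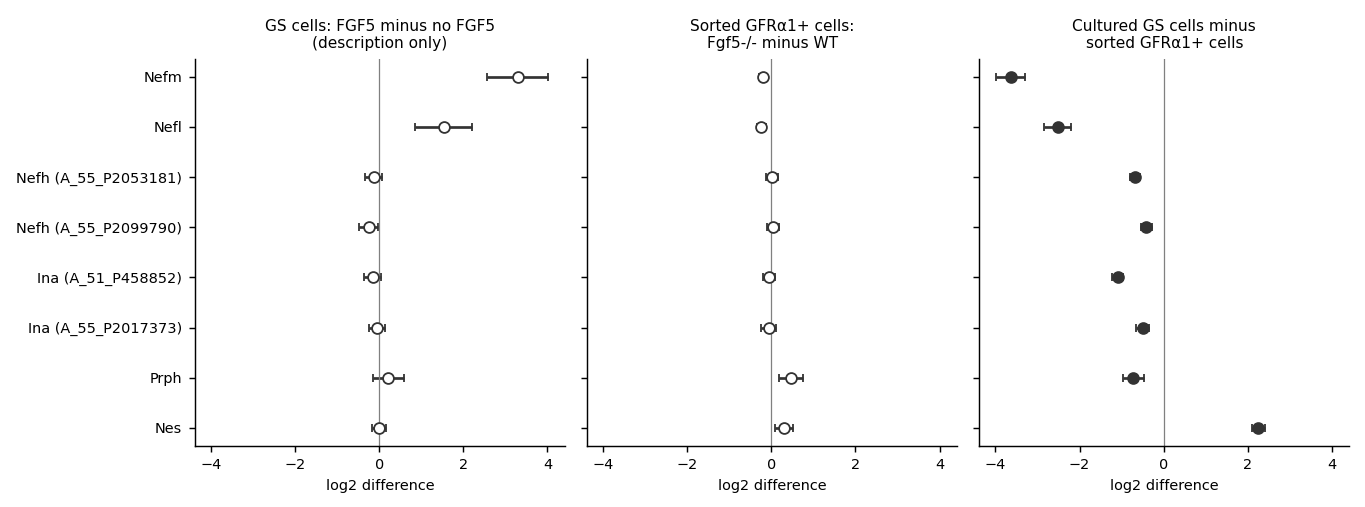
Log2 difference (horizontal axis) with its standard error for the 8 probes in GS cells with minus without FGF5, in sorted Fgf5-/- minus WT cells, and in cultured minus sorted cells. Filled points passed an adjusted p of 0.05, and the first panel holds no test; Nefm is at 3.29, -0.19 and -3.64 in the 3 panels, and Nes at -0.01, 0.30 and 2.25.

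Set in order, the groups ranked differently for Nefm and Nes. Nefm was lowest in GS cells without FGF5, followed by GS cells with FGF5, Fgf5-/- cells and WT cells, and no neighbours in that order overlapped, although Fgf5-/- and WT cells did not differ past the threshold. The order was the same for Nefl. For Nes, the cultured groups overlapped each other and so did the sorted groups. The place of the cells with FGF5 in the order of Nefm and Nefl rests on the values that chose the set, so the order is a description with no test.

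Across the 10 arrays, Nefl followed Nefm with a Pearson correlation of 0.979, which ranked 43 among 17733 genes. The correlation with Nefm was 0.749 for Nefh and 0.736 for Ina, read from A_55_P2053181 and A_51_P458852, and was lower on their second probes, 0.52 on A_55_P2099790 and 0.60 on A_55_P2017373. It was 0.671 for Prph and -0.84 for Nes. The genes most like Nefm were Tmc6 (0.999), Mtap7d3 (0.997), Dusp4 (0.997), Ccnd2 (0.996) and Egr2 (0.996). Dusp4 encodes a phosphatase of ERK and related kinases, Ccnd2 a D-type cyclin, and Egr2 an early growth response factor. The genes most like Nefl were Jdp2, Kcnj15 and Strip2 (0.996 to 0.998), and those most like Nes were Lman2l, Zfp112 and Elane (0.996 to 0.997). For Nefh they were Ppp4r1, Tbc1d2 and Mef2d on A_55_P2053181 (0.988 to 0.991) and Zfp644, Ahr and Smek2 on A_55_P2099790 (0.955 to 0.962). For Ina they were Gtpbp1, Col18a1 and Pgm2l1 on A_51_P458852 (0.991 to 0.996) and Rsph1, Irs2 and Dnmt3b on A_55_P2017373 (0.973 to 0.981), and for Prph Plb1, Rin1 and Plekho2 (0.919 to 0.942). These correlations are a description, since the 10 arrays fall into 2 materials on separate slides, and any gene that differs between the materials correlates with any other that does. They also include the cultured arrays whose values of Nefm chose the set, so nothing is read from the ranks or the genes named.

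**Figure D3:**
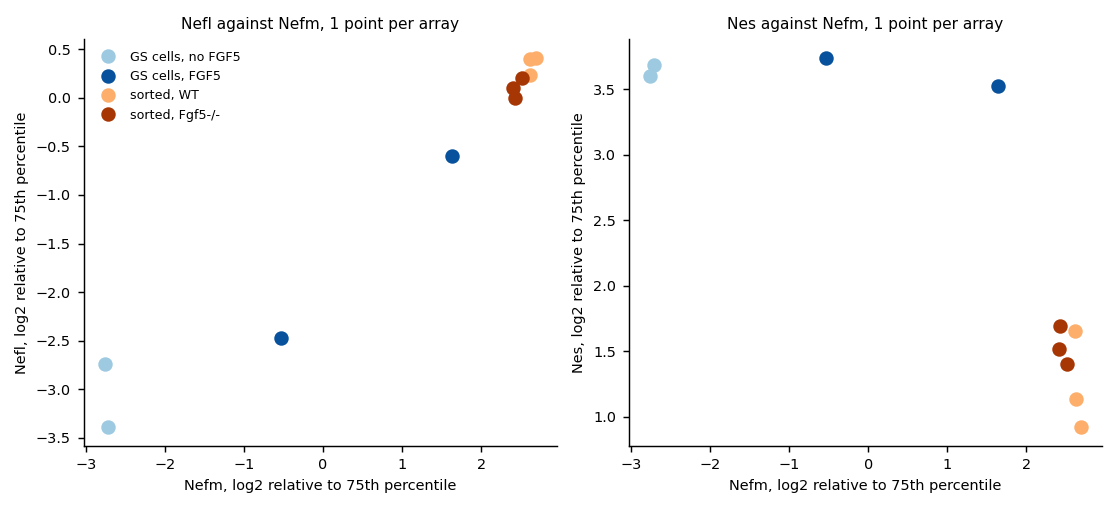
Log2 signal of Nefl (left) and of Nes (right) against that of Nefm, relative to the 75th percentile, with 1 point for each of the 10 arrays, coloured by group. Nefl is higher where Nefm is, from GS cells without FGF5 through those with FGF5 to the sorted cells (r = 0.979), whereas Nes is alike on all cultured arrays, whatever the level of Nefm, and lower on the sorted ones.

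Nefl and Nefm are neighbours on chromosome 14, with their probes 32.5 kb apart and 0 probes of other named genes between them. The nearest named probe on the side of Nefm, for the transcript A230070E04Rik at chr14:68749306-68749365, was well above background on all 10 arrays, with differences of 0.78 with FGF5 and -0.46 between cultured and sorted cells (limma, adjusted p = 0.0585 for the latter). On the side of Nefl, Kctd9 and Dock5 had differences of 0.05 and 0.04 with FGF5 and of -0.73 and -0.77 between cultured and sorted cells (limma, adjusted p = 0.0004963 and 0.0002936). A probe of Gnrh1 between them (A_55_P2095716), well above background on 7 of the 10 arrays, had differences of -0.31 and 0.40 (limma, adjusted p = 0.408 for the latter). Further from Nefm, the probes of Adam7 and Adamdec1 were well above background on 0 arrays.

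Promoter sequences of RefSeq, 300 bases each, were matched for 3 of the 6 genes, Nes, Prph and Ina. Searched on both strands, the Sp1 motif GGGCGG had 2 matches in Nes, 1 in Prph and 2 in Ina, and is found in 35.7% of all 32851 promoters. The TATA box TATAAA had 1 match in Prph and is found in 13.6% of all promoters. The letters of the ETS core CCGGAA, the AP-1 motif TGACTCA, the CRE TGACGTCA and the E-box CACCTG had 0 matches in the 3 windows, and are found in 14.9%, 5.2%, 1.79% and 20.2% of all promoters.

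The other intermediate filament genes give a comparison for the neural ones. Of 13 other cytoplasmic subunits, which include vimentin, desmin and keratins, 12 were tested in culture and 1 was at least 2-fold higher with FGF5 on arrays that did not overlap. This was Krt18, a keratin of simple epithelia, with a log2 difference of 1.49 (SE 0.73), while its partner Krt8 had 0.47 and the lens subunit Bfsp2 -0.46. The list had a median difference of -0.12, next to -0.03 for all probes. Between cultured and sorted cells, 7 of 12 rose and 4 fell in limma, with a median of 0.71, next to 0.26 for all probes. Krt18 fell by 2.90 (adjusted p = 0.0001901), and Krt14, a keratin of basal epithelia, and Gfap, the astrocyte subunit, rose by 1.67 (adjusted p = 1.144e-05) and 1.50 (adjusted p = 0.042). Gfap was well above background on 2 of the 6 sorted arrays, so its rise was measured largely against background. Of the 3 nuclear lamins, Lmna and Lmnb1 fell, with differences of -1.73 and -1.67 (adjusted p = 0.001544 and 1.454e-05) and Lmnb2 rose by 0.33 (adjusted p = 0.007934). Lmna had a difference of 0.98 (SE 0.63) with FGF5, with overlapping arrays, and Lmnb1 and Lmnb2 had -0.07 and -0.0077. In the sorted cells 0 of 10 tested cytoplasmic subunits and 0 of 3 lamins passed, with values of -0.51 for Vim, -0.27 for Krt8 and 0.26 for Krt7, and of -0.33, -0.29 and -0.06 for Lmnb1, Lmna and Lmnb2 (limma, adjusted p between 0.729 and 0.865).

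The genes that link, carry or turn over neurofilaments had smaller differences. All 15 of this list were well above background in every group, and in culture 0 were past 2-fold without overlap (median -0.05). The highest differences there were 0.54 for Arhgef28, 0.28 for Plec, the cytolinker plectin, and -0.25 for Cdk5r1, an activator of the kinase Cdk5. Between cultured and sorted cells, 2 rose and 6 fell (median -0.10), with the cytolinkers Dst and Macf1 at -1.30 and -0.85 and Cdk5 at -0.91 (limma, adjusted p = 0.0001505, 0.002479 and 0.0003474). None (0 of 15) passed in the sorted cells, and the values were 0.41 for the kinesin Kif5b, 0.29 for Cdk5 and 0.24 for Kif5c (limma, adjusted p = 0.729, 0.753 and 0.771).

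Microtubule proteins of axons were tested for 6 of 10 genes. Crmp1, a cytosolic phosphoprotein of semaphorin signaling, had a log2 difference of 2.78 (SE 0.82) with FGF5 without overlap, and the others lay between -0.43 for Stmn3 and 0.36 for Mapt. Sorted cells had 0 of 6 past the threshold, and Crmp1 was at -0.59, the neuronal tubulin Tubb3 at -0.58 and Map1b at -0.24 (limma, adjusted p = 0.729, 0.729 and 0.826). That value of Map1b is from its probe A_55_P1964193, the brighter one in the sorted cells, and its other values are from A_52_P360330. Between the materials, Map1b on A_52_P360330, well above background on 1 of the 6 sorted arrays, rose by 4.21 (limma, adjusted p = 2.817e-06). Tubb3 and Dpysl3 fell, with differences of -1.50 and -0.90 (limma, adjusted p = 0.001435 and 0.0003011). The direction within this list was thus mixed, with a median of 0.12, and Map1b, on that probe, and Nefm moved in opposite directions.

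Rest, the repressor of neuronal genes outside neurons, and its cofactors were all well above background. In culture 0 of 7 were past 2-fold, with Rcor1 at -0.43, Rest at 0.21 and Hdac2 at -0.16. Fgf5-/- and WT cells differed past the threshold for 0 of 7, with Rcor1 at 0.13, Kdm1a at -0.12 and Rest at -0.11 (limma, adjusted p between 0.791 and 0.813). Between cultured and sorted cells 3 rose and 4 fell in limma, with a median of -0.34. Rest, Hdac1 and Kdm1a fell, with differences of -1.43, -0.93 and -0.54 (adjusted p = 1.326e-05, 7.848e-05 and 0.002865), so that Rest was lower in the same material as Nefm and Nefl.

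Feedback genes of FGF and ERK signaling were the list with the highest differences in culture, where 4 of 6 were at least 2-fold higher with FGF5 without overlap and the median difference was 3.58. Dusp6 had a difference of 4.59, Etv5 of 3.93, and Spry4, an inhibitor of the pathway that was not well above background without FGF5, was at least 6.41-fold higher. In the sorted cells 0 of 6 passed, and Spry4 and Spry2 were at -0.19 and 0.21 (limma, adjusted p = 0.791 and 0.925). Between the materials 0 rose and 5 fell in limma (median -2.76), with Dusp6, Etv5, Etv4 and Spry4 at -3.64, -3.50, -3.02 and -2.503 (adjusted p = 2.255e-05, 3.94e-05, 3.576e-05 and 0.0008817). By group means, Dusp6, Etv5 and Spry4 had the same order over the groups as Nefm and Nefl, from GS cells without FGF5 up to sorted WT cells. Spry2 did not have it, at -2.17 in Fgf5-/- and -2.38 in WT cells. For Spry4, replicate 2 with FGF5, at -1.21, lay above every sorted array. Genes outside this list, among them Lmna, Gfra1 and Id4, had the order too. Its share over all probes was not counted, so nothing is read from it.

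**Figure D4:**
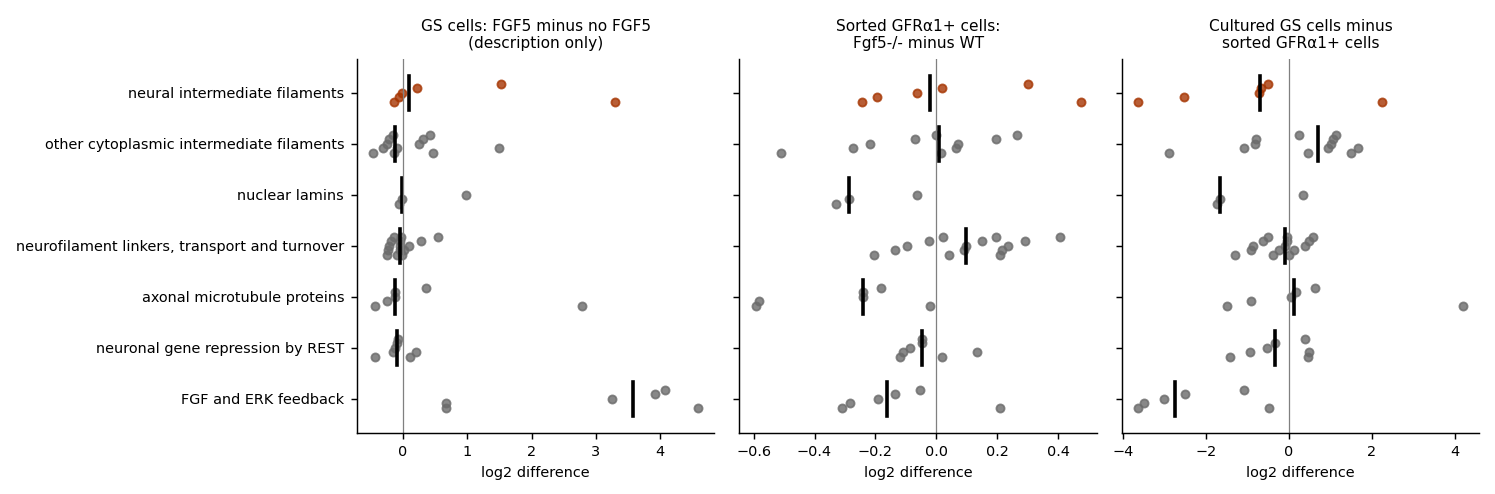
Log2 difference (horizontal axis, with a scale of its own in each panel) of every tested gene of 7 lists, 1 point per gene, read from its brightest probe, with the list median as a black bar. Neural intermediate filaments are in brown; their median is 0.10 in culture, -0.02 in the sorted cells and -0.70 between the materials, and the highest median in culture, 3.58, is that of FGF and ERK feedback.

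Markers of other cells were read beside these results, each list as the sum over its genes of the level as a multiple of the 75th percentile. Of 12 neuronal genes, 11 or 12 were well above background in each group, and their sum was 15.5 to 16.8 on the cultured arrays and 6.40 to 18.8 on the sorted ones. In limma 9 of the 12 rose in culture and 2 fell, next to 41.9% and 25.7% of all probes tested. Rbfox3 rose by 2.05 (limma, adjusted p = 6.809e-06) and Eno2 by 1.71 (limma, adjusted p = 0.0002383). Elavl3 and Syn1 fell, at -0.89 and -0.86 (limma, adjusted p = 0.04375 and 0.0008577). The part of neurons in the levels of Nefm and Nefl was not tested. With FGF5, Slc17a6, a glutamate transporter, was at least 2.43-fold lower on arrays that did not overlap, and 0 of the 12 were 2-fold higher. Between sorted groups, 0 of the 11 tested passed.

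As with Nes, more genes rose in culture than fell on the lists of neurons, fibroblasts, pericytes and smooth muscle, glia, Leydig cells and macrophages, and the same held over all probes tested. The sum of the fibroblast genes was 6.33 to 14.4 in GS cells with FGF5 and 7.21 to 16.1 without, and 4.87 to 5.80 in WT and 5.71 to 6.35 in Fgf5-/- cells. In limma, 4 of 7 rose in culture and 1 fell. The receptor gene Pdgfra fell, at -0.46 (limma, adjusted p = 0.009), and Col1a1 and Thy1 did not pass (limma, adjusted p = 0.0895 and 0.926). The rises included Col1a2 by 3.66 (limma, adjusted p = 7.298e-06), Dcn by 2.84 (adjusted p = 0.0002515) and Col3a1 by 1.57 (adjusted p = 0.00119). Dcn was well above background on 1 of the 6 sorted arrays and Col3a1 on 4, so these rises were measured partly against background. Of 8 pericyte and smooth muscle genes 7 were tested, of which 5 rose and 1 fell, with Acta2 rising by 2.18 and Myh11, well above background on 2 of the 6 sorted arrays, by 1.59 (adjusted p = 0.0001261 and 0.01239) and Pdgfrb, a defining pericyte marker, not well above background in culture and at least 3.50-fold lower there (adjusted p = 5.887e-05). Their sum was 63.9 to 78.0 on the cultured arrays and 42.4 to 81.4 on the sorted ones. With FGF5, 0 genes of either list were past 2-fold without overlap. The part of either cell type in the level of Nes was not tested.

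Lists of glia, endothelial cells, Sertoli cells, Leydig cells and macrophages moved both ways between the materials, with the exception of Leydig cells, where 2 of 2 tested genes rose. Their numbers of rises and falls in limma were 3 and 1 of 5 tested for glia, 2 and 2 of 4 for endothelial cells, 1 and 3 of 6 for Sertoli cells and 3 and 1 of 4 for macrophages. With FGF5, 1 gene of these lists was at least 2-fold higher without overlap, the macrophage receptor Mrc1, which was at least 3.48-fold higher and not well above background without FGF5. Mrc1 was also lower in cultured than in sorted cells, at -4.08 (limma, adjusted p = 4.525e-06), and was well above background on 2 of the 4 cultured arrays. In the sorted cells 0 genes of these lists passed, and Mrc1 had a difference of -0.30 without overlap (limma, adjusted p = 0.731). It thus had the signs of Nefm and Nefl in each of the 3 comparisons. Genes of other lists, among them Gfra1, Id4 and Lmna, had these signs too, and their share over all probes was not counted. The other tested macrophage genes, Csf1r, Cd68 and Cd14, rose in culture by 1.71, 1.05 and 0.62. The sum of the macrophage genes went the other way between the materials, at 3.69 to 4.67 on the cultured arrays and 1.40 to 2.60 on the sorted ones, and Lyz2 was not well above background in any group. Other markers that fell in culture included Sox10 of glia, at -2.00 (limma, adjusted p = 1.957e-05), Tek and Cdh5 of endothelial cells and Cldn11 of Sertoli cells. Tek was well above background on 0 of the 4 cultured arrays and at least 4.63-fold lower there, and Cdh5 and Cldn11, well above background on 3 and 1 of those arrays, were at -2.35 and -2.45 (limma, adjusted p = 0.0001003, 6.865e-06 and 0.0009722). The part of these cell types in the levels of Nefm and Nefl was not tested.

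Among the spermatogonial genes, Cdh1, Gfra1 and Ret were lower in culture, at -3.16, -3.01 and -2.11 (limma, adjusted p = 2.858e-06, 0.0004855 and 5.326e-05), and 6 of 10 on their list fell while 1 rose. With FGF5, 1 of the 10 was at least 2-fold higher without overlap, the GDNF receptor Ret with a difference of 1.45. Gfra1 had a difference of 1.555 (SE 0.94) on arrays that overlapped, and Id4 one of 0.91 (SE 0.26) without overlap. Of 6 genes of differentiation and meiosis 0 rose and 3 fell, with Stra8 and Kit at -3.14 and -2.77 (limma, adjusted p = 1.039e-06 and 1.827e-06). Over all probes tested, 25.7% were lower in culture and 41.9% higher past an adjusted p of 0.05. Ddx4, Dazl and Lin28a did not pass, at -0.10, 0.17 and -0.04 (limma, adjusted p = 0.315, 0.169 and 0.858), and neither did Sohlh1, Sycp3 and Dmrtb1. Whether the state of the germ cells differed between the materials, and its part in the levels of Nefm and Nefl, was not tested.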

How the data were processed

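RNA of 10 samples was measured on 1-color Agilent arrays. The authors deposited scanner output with spot intensity on a linear scale, background-subtracted by Feature Extraction (10.7.3.1 per the labels, 10.7.1.1 per the file headers), and background flags as other columns. The deposited log2 values were made by the authors with a floor of 1 and a shift to the 75th percentile. They differ from the log2 scanner signal by a constant per array. Here log2 signals were recomputed in R 4.3.3 from the same floor and percentile over 59305 non-control spots. Spots marked as uneven or outliers were left out and spots of a probe were averaged, so dim probes such as Prph remain the most exposed to background. For Nefm, 1 of 10 spots was left out on each GS array without FGF5 and on WT replicate 2. To be tested, a probe had to stand well above background on the whole of 1 group or more. It was fitted with limma 3.58.1 (two-sided, Benjamini-Hochberg, 0.05), on 4 cultured, 6 sorted or all 10 arrays. A probe not well above background on any array of a group was given a bound, from the mean of the higher of the lowest signal well above background and its own. A gene on a list was read from its brightest probe, and the 3 genes with the largest differences per list and comparison were named with Dusp6, Etv5 and Spry4. The members and gene lists were chosen with earlier results of these data known. Simulated data had 200 changed probes, in equal parts at log2 changes of 1 and 2. Of those changed by 1, 3%, 52% and 58% were recovered in the culture, sorted and cultured against sorted designs. At 2, the shares were 79%, 94% and 90%. The simulated noise was independent between arrays, whereas equally numbered cultured samples deviated together (r = 0.636). In the real sorted data, 284 probes differed at least 2-fold and 0 passed. The recovery shares therefore describe the simulation and not what the real fits can detect. Arrays have no sequencing depth, and their number limits the precision. The replicate numbers were checked for pairing through the correlation of deviations from group means.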

Additional observations from a re-analysis of the deposited data

How the results depend on the processing

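In GS cells, 260 probes were at least 2-fold higher with FGF5 without overlap. This count was 106 after normexp background correction, 542 with no filter on dim probes and 159 with a stricter one. It was 402 to 1169 when 1 array was left out, where fewer arrays also make overlap rarer. Nefm then differed by 2.21 to 4.37 and Nefl by 0.59 to 2.47, and under the other alternatives by 2.61 to 3.31 and 0.997 to 1.55. In sorted cells, 0 probes passed, and 0 to 6 did with 1 array left out, with member adjusted p in limma of 0.545 or more. Small sorted differences changed sign: Nefh A_55_P2099790 to -0.041 with normexp, and Ina A_51_P458852 and A_55_P2017373 to 0.014 and 0.0089 with the percentile over probes well above background. With 1 array left out, they spanned -0.086 to 0.11, -0.17 to 0.0084 and -0.16 to 0.11, and Nefh A_55_P2053181 spanned -0.065 to 0.14. Between the materials, the median of all probes was 0.12 after quantile normalization and 0.41 with that percentile, next to 0.26. Nefm lay between -4.18 and -3.10, Nefl between -2.99 and -1.93 and Nes between 2.17 and 2.40 under these and the remaining settings on all groups, each past the threshold. The calls of Nefh A_55_P2099790 and Prph were also lost with that percentile (limma, adjusted p = 0.158 and 0.0883) and after normexp (0.0541 and 0.956), and that of Prph with no filter (0.0589). Against WT cells alone, calls were lost for Prph and Ina A_55_P2017373 in GS cells without FGF5 (0.162 and 0.0902) and with it (0.321 and 0.0908), and for Nefh A_55_P2099790 in those without (0.267). The cause of these changes was not tested.

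Equally numbered cultured samples deviated together (r = 0.636), which with 2 pairs does not establish pairing, and sorted samples did not (r of -0.42 to -0.15). The block does not enter the culture count of 260, which rests on group means and overlap. With the replicate block, 2549 probes in culture were under an unadjusted p of 0.05, next to 882 without it, the standard error fell from 0.73 to 0.55 for Nefm and from 0.67 to 0.32 for Nefl, and 0 probes passed in the sorted cells.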
